A study of Mus musculus with 4 samples.

Results

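The genes described here are 53 components of T cell receptor signalling in the mouse. They were taken as a fixed list of symbols, chosen with earlier results of these data known. The symbols were matched to the Ensembl identifiers of 4 count tables, which hold 50686 identifiers each. All 53 matched, and 52 passed the filter on low counts that kept 15394 genes in all. Spry2 did not pass, with 5 reads in Yap KO stimulated, 1 in WT stimulated, 15 in Yap KO unstimulated and 10 in WT unstimulated cells. The groups were Yap KO stimulated, WT stimulated, Yap KO unstimulated and WT unstimulated cells, with 1 library each. All came from spleen and lymph node, and RNA was taken from culture. Titles of stimulated libraries carry the number 24 without a unit. Not given in the sources used here were the stimulus, the cell type, the age and number of animals, the deleted part of Yap1 and any Cre driver. With 1 library per group, genotype and the source of the cells cannot be told apart.

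The T cell receptor is a pair of antigen-binding chains that have almost no cytoplasmic tail of their own. It signals through the CD3 and zeta chains, whose tails are phosphorylated by the kinase LCK and then hold the kinase ZAP-70. ZAP-70 phosphorylates the scaffold LAT, on which adaptors gather phospholipase C-gamma, and its products open the calcium, Ras-MAP kinase and NF-kappaB branches. Phosphatases, ubiquitin ligases, diacylglycerol kinases and MAP kinase phosphatases limit the signal. In CD8 T cells the coreceptor CD8 brings LCK to the receptor.

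Reads assigned to genes numbered 19935523 to 25419974 per library. Yap1, the gene named in the genotype, had 2 reads in Yap KO stimulated, 3 in WT stimulated, 0 in Yap KO unstimulated and 1 in WT unstimulated cells, too few to check the genotype labels. Among lineage markers Cd4 had at most 3 reads per library, whereas the CD3 and CD8 genes were well read in all 4 libraries. The other members of the CD4 T cell list were read in each library. Cd40lg had 263 to 398 reads, Foxp3 167 to 290 and Zbtb7b 9 to 87. Levels are given as CPM, TMM-scaled counts relative to library size (TMM is the trimmed mean of M-values). Of other cell types, 10 of 10 B cell markers were detected in each library, summing to 391 and 433 CPM in Yap KO and WT stimulated cells, against 1162 and 1184 CPM in Yap KO and WT unstimulated cells, most of it Ighm. NK cell markers summed to 90.4 and 68.6 CPM in Yap KO and WT stimulated cells, against 330.4 and 238 CPM in Yap KO and WT unstimulated cells, of 8 listed. Of 8 myeloid markers, Fcgr1 had no read in any library and Itgam and Adgre1 had none in the stimulated ones. Csf1r was the most read, with 396 and 291 reads in Yap KO and WT stimulated cells, against 435 and 362 in the unstimulated ones. Cd68 had 59 to 119 reads per library. Lyz2 had 1 and 6 reads in Yap KO and WT stimulated cells, against 238 and 136 in the unstimulated ones. The myeloid list summed to 24.3 and 18.1 CPM in Yap KO and WT stimulated cells, against 32.7 and 26.3 CPM in Yap KO and WT unstimulated cells. The neutrophil and erythroid list of 7 summed to 0.363 and 0.685 CPM in Yap KO and WT stimulated cells, against 2.69 and 6.94 CPM in Yap KO and WT unstimulated cells. The stromal list of 5, chiefly Pecam1, summed to 10.8 and 11.8 CPM in Yap KO and WT stimulated cells, against 138 and 158 CPM in Yap KO and WT unstimulated cells, with Cdh5 at 0 throughout. Pdgfrb of that list had 13 and 14 reads in Yap KO and WT stimulated cells, against 459 and 37 in the unstimulated ones. These lists were all lower in the stimulated libraries, and their part in the results was not tested. The CD4 T cell list of 4 summed to 26.8 and 33.3 CPM in Yap KO and WT stimulated cells, against 20.9 and 30.4 CPM in Yap KO and WT unstimulated cells. In bulk RNA, fewer cells of a type and less RNA per cell cannot be told apart.

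The first comparison set stimulated against unstimulated cells. Most receptor signalling genes were lower in the stimulated libraries of both genotypes, including Trac and Trbc2, the CD3 and CD8 chains, the kinase genes Lck, Fyn, Zap70, Txk, Csk and Prkcq and most LAT adaptors. A smaller group was higher, led by the MAP kinase feedback genes Spry1, Dusp4 and Dusp5, the adaptor gene Sh2d1a and the ubiquitin ligase gene Cblb. In an additive edgeR quasi-likelihood fit of state and genotype, 37 of 52 fell and 10 rose at an adjusted p of 0.05, and 5 did not pass. Over all 15394 genes tested, 34.1% fell and 33.3% rose, 67.4% together. The ratio was below 0 in both genotypes for 39 of 52, beside 45.4% of all tested genes. The median log2 ratio of the 52 was -1.07 in Yap KO and -0.99 in WT cells, beside -0.05 and -0.02 for all tested genes. Changes of at least 2-fold numbered 28 down and 5 up, beside 23.7% and 22.2% of all tested genes. There are no replicate cultures, so the spread behind these p-values is not one between cultures. It rests on how far the state difference varied between the 2 genotypes, with 1 residual degree of freedom. The fit moderates it with a spread estimated over all tested genes, with 7.98 prior degrees of freedom. Coefficients below are log2 values from the additive fit with their standard error (SE).

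**Figure D1:**
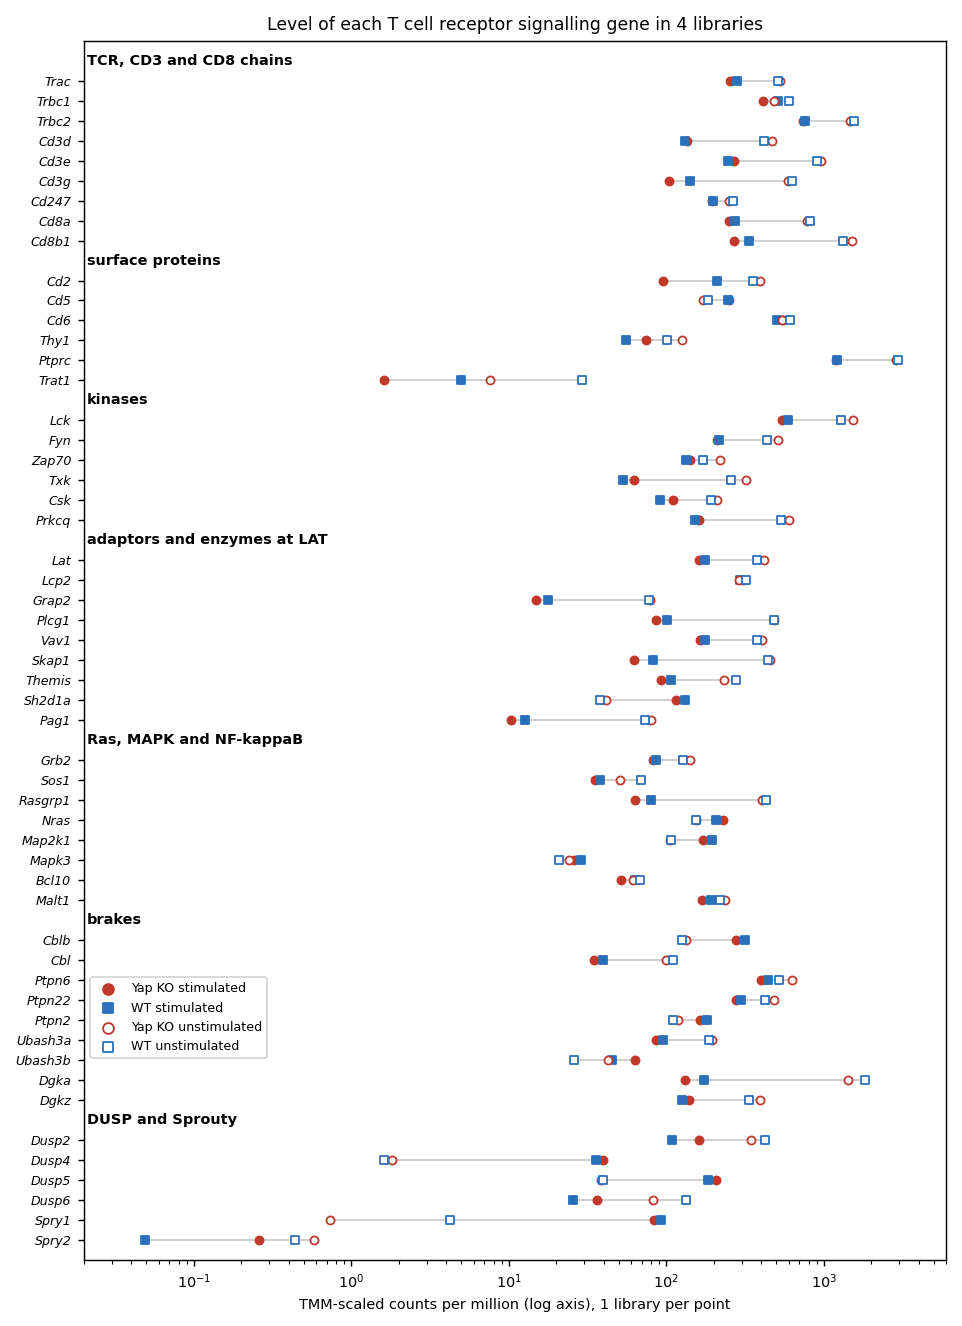
Level of each of the 53 genes in 4 libraries, in TMM-scaled CPM on a log axis, grouped by role, with circles for Yap KO and squares for WT, filled for stimulated and open for unstimulated cells. Filled symbols lie left of open ones for 37 genes that fell in the test, and right of them for the 10 that rose, among them Spry1, Dusp4 and Dusp5.

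Of 9 genes for chains of the receptor, the CD3 complex and the CD8 coreceptor, 8 fell with stimulation and none rose. Over all tested genes 34.1% fell and 33.3% rose. Cd3e, a signalling chain of CD3, stood at 269.6 CPM in Yap KO and 246 CPM in WT stimulated cells, against 954 CPM in Yap KO and 901 CPM in WT unstimulated cells. Both stimulated values lay far below both unstimulated ones, and the coefficient was -1.85 ± 0.13 (SE, edgeR quasi-likelihood adjusted p = 1.98e-06). Cd3d, which pairs with Cd3e, had 135 CPM in Yap KO and 132 CPM in WT stimulated cells, against 466 CPM in Yap KO and 418 CPM in WT unstimulated cells. Cd3g, the gamma chain that also pairs with Cd3e, had 104 CPM in Yap KO and 142 CPM in WT stimulated cells, against 589 CPM in Yap KO and 626 CPM in WT unstimulated cells. It fell by 2.32 ± 0.14, more in size than Cd3d at -1.73 ± 0.12. In stimulated cells Cd3g was also lower in Yap KO than in WT, with a log2 ratio of -0.44 (-0.53 to -0.36) (exact 95% counting interval). Cd247, the zeta chain with the most signalling motifs of the complex, had 194 CPM in Yap KO and 197 CPM in WT stimulated cells, against 252 CPM in Yap KO and 264 CPM in WT unstimulated cells. Its coefficient of -0.40 ± 0.12 (adjusted p = 0.0138) was the smallest of the 8, and 56.4% of its exon bases lie opposite exons of Pou2f1, which had 416 to 932 reads per library. Without a stated strand setting, reads of such partners cannot be told apart. A smaller share of the exon bases of Cd3e, 3.31%, lies opposite Gm48719, which had 1312 to 6429 reads. The exons of Lcp2, Plcg1, Skap1, Themis, Ptpn6, Dgka and Dgkz, described further on, also lie opposite another gene over 1.31 to 7.98% of their bases.

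The genes of the receptor's own constant regions had smaller coefficients than Cd3d, Cd3e and Cd3g. Trac, the alpha constant region, had 255 CPM in Yap KO and 283 CPM in WT stimulated cells, against 523 CPM in Yap KO and 515 CPM in WT unstimulated cells, and fell by 0.95 ± 0.12 (adjusted p = 0.000117). Trbc2, one of the beta constant regions, had 733 CPM in Yap KO and 758 CPM in WT stimulated cells, against 1474 CPM in Yap KO and 1553 CPM in WT unstimulated cells, and fell by 1.02 ± 0.13. Trbc1, the other, had 411 CPM in Yap KO and 508 CPM in WT stimulated cells, against 479 CPM in Yap KO and 598 CPM in WT unstimulated cells. The Trbc1 groups lay close together, and its coefficient of -0.23 ± 0.12 did not pass (adjusted p = 0.121), although it did when libraries were scaled to total counts only (-0.31, adjusted p = 0.0427, and 0.121 to 0.261 in the fits in which it did not pass). Trbc1 and Trbc2 share 44.8% and 48.5% of their 31-base words with other genes, mainly each other, and reads that align in more than 1 place were not assigned, so both levels are uncertain.

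Both coreceptor chains fell. Cd8a had 252 CPM in Yap KO and 271 CPM in WT stimulated cells, against 783 CPM in Yap KO and 821 CPM in WT unstimulated cells, and fell by 1.62 ± 0.12 (adjusted p = 4.08e-06). Cd8b1, whose beta chain joins Cd8a on conventional CD8 T cells, had 269 CPM in Yap KO and 333 CPM in WT stimulated cells, against 1512 CPM in Yap KO and 1329 CPM in WT unstimulated cells, and fell by 2.24 ± 0.16 (adjusted p = 2.45e-06). For both genes the stimulated and unstimulated values did not overlap. Scaled by exon length, Trbc2 had the highest level of the 9 in each library, at 1059 and 1095 CPM per kb in Yap KO and WT stimulated cells, against 2129.6 and 2244 in Yap KO and WT unstimulated cells. Per length, Cd247 stood at 36.4 and 37.0 CPM per kb in Yap KO and WT stimulated cells, against 47.2 and 49.5 in Yap KO and WT unstimulated cells, the lowest of the 9 in unstimulated cells. In Yap KO stimulated cells Cd3g was lower still per length, at 32.0 CPM per kb.

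**Figure D2:**
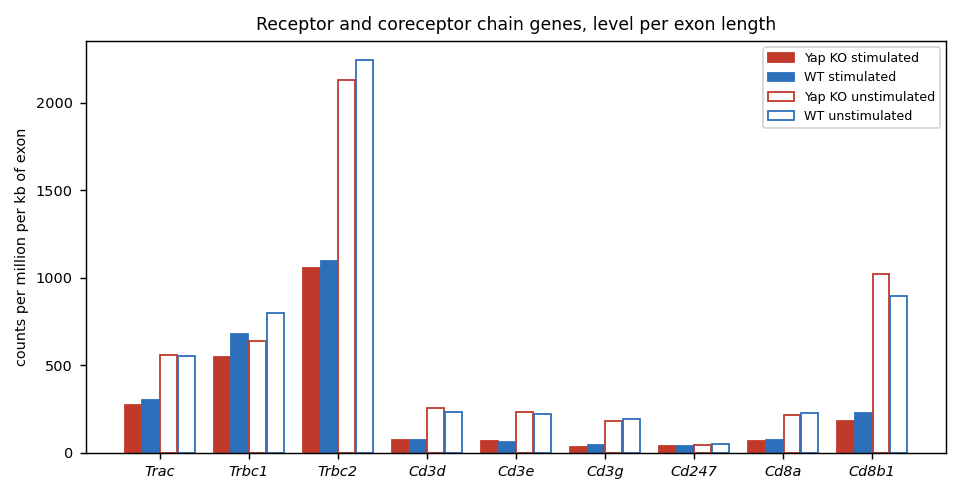
Level of the 9 receptor, CD3 and CD8 chain genes in CPM per kb of exon (vertical axis), as bars from 0 for Yap KO stimulated, WT stimulated, Yap KO unstimulated and WT unstimulated cells, 1 library each. Stimulated bars are lower than unstimulated bars of the same genotype for all 9 genes, with the smallest gaps at Cd247 and Trbc1.

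The genes Cd3d, Cd3e and Cd3g, which all fell, lie near each other on chromosome 9 (GRCm38, GENCODE M21). Cd3d runs from 44981786 to 44987339 on the forward strand, Cd3g from 44969572 to 44980431 and Cd3e from 44998740 to 45009627 on the reverse strand. The starts of Cd3d and Cd3g are 1355 bases apart and point away from each other. Their 250 bases before the RefSeq start (GRCm38.p6) are shown because these neighbours fell in the same direction, at chr9:44981536-44981785 (forward), chr9:44980432-44980681 (reverse) and chr9:45009612-45009861 (reverse). Capitals mark the E-box CAGGTG, a motif bound by E proteins, on either strand.
Cd3d: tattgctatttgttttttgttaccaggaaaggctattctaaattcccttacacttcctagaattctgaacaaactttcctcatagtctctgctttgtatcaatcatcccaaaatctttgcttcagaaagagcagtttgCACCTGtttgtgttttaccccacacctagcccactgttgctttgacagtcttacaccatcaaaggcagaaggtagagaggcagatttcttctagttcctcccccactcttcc
Cd3g: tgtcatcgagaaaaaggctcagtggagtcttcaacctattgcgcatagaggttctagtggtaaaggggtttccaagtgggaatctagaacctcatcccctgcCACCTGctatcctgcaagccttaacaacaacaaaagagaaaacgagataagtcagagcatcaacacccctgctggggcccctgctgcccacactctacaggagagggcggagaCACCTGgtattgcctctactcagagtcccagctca
Cd3e: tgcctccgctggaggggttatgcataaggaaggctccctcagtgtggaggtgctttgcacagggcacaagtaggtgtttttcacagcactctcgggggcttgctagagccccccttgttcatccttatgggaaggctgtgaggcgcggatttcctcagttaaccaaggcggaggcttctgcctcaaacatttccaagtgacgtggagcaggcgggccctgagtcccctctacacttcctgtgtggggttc
The E-box was present once before Cd3d and at 2 places before Cd3g, each on the opposite strand, and these letters are not in the Cd3e window. Over the 39 listed genes with an entry, 15 of 53 start windows held it (28.3%), beside 17.2% of 32851 windows in the RefSeq table. None of the 3 CD3 windows held the ETS motif CCGGAAG, the RUNX motif TGTGGT or the AP-1 motif TGANTCA, searched on both strands. Of all 32851 windows 6.91%, 14.05% and 6.75% held them in the same order, and of the 53 windows of listed genes 0, 6 and 0. Absence from 3 windows is therefore no trait of these genes. Only these letters were searched, and other forms of the motifs were not.

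Among 6 other surface proteins, 4 fell, 1 rose and 1 did not pass, beside 34.1% falling and 33.3% rising over all tested genes. Ptprc, the phosphatase CD45 that keeps LCK active, had 1200.2 CPM in Yap KO and 1210.1 CPM in WT stimulated cells, against 2881 CPM in Yap KO and 2955 CPM in WT unstimulated cells. It fell by 1.28 ± 0.15 (adjusted p = 5.4e-05), with both stimulated libraries below both unstimulated ones. Cd2, an adhesion receptor, had 95.5 CPM in Yap KO and 209 CPM in WT stimulated cells, against 394 CPM in Yap KO and 356 CPM in WT unstimulated cells. Its coefficient was -1.40 ± 0.25 (adjusted p = 0.000905), but the Yap KO stimulated library lay well below the WT one. Trat1, the TRIM adaptor that associates with the receptor, had 31 and 101 reads in Yap KO and WT stimulated cells, against 198 and 665 reads in Yap KO and WT unstimulated cells. This was the least read of the 6, and it fell by 2.44 ± 0.24 (adjusted p = 2.1e-05). Thy1, a glycolipid-anchored protein of T cells, fell by 0.81 ± 0.13. Cd5, a receptor that damps signalling, rose by 0.48 ± 0.12 and was the only 1 of the 6 that rose, at 251 CPM in Yap KO and 245 CPM in WT stimulated cells, against 172 CPM in Yap KO and 185 CPM in WT unstimulated cells. Cd6, of the same receptor family, had 549.8 and 501 CPM in Yap KO and WT stimulated cells and 541 and 609 CPM in the unstimulated ones, and did not pass (adjusted p = 0.406).

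The kinase genes outside the Ras and MAP kinase branch, Lck, Fyn, Zap70, Txk, Csk and Prkcq, all fell. Over all tested genes 34.1% did. Lck, the kinase that starts the cascade, had 543 CPM in Yap KO and 592 CPM in WT stimulated cells, against 1526 CPM in Yap KO and 1283 CPM in WT unstimulated cells, and fell by 1.30 ± 0.15 (SE, adjusted p = 4.57e-05). Fyn, its close relative, had 211 CPM in Yap KO and 217 CPM in WT stimulated cells, against 508 CPM in Yap KO and 434 CPM in WT unstimulated cells, and fell by 1.14 ± 0.13. Zap70 fell least, by 0.49 ± 0.13 (adjusted p = 0.00678). Txk, a Tec family kinase, fell furthest, by 2.33 ± 0.12 (adjusted p = 4.84e-07). It had 62.2 CPM in Yap KO and 53.1 CPM in WT stimulated cells, against 322 CPM in Yap KO and 258 CPM in WT unstimulated cells, so its groups were wide apart. Prkcq, the protein kinase C-theta of the NF-kappaB branch, had 162 CPM in Yap KO and 153 CPM in WT stimulated cells, against 600.2 CPM in Yap KO and 537 CPM in WT unstimulated cells, and fell by 1.85 ± 0.12. Csk, which phosphorylates the inhibitory site of LCK, had 110.4 CPM in Yap KO and 90.5 CPM in WT stimulated cells, against 210.4 CPM in Yap KO and 192 CPM in WT unstimulated cells, and fell by 1.01 ± 0.12. The stimulated and unstimulated values of Csk did not overlap.

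Of 9 adaptors and enzymes around LAT, 7 fell and 1 rose (over all tested genes 34.1% and 33.3%), and 1 did not pass. Pag1, the membrane anchor of CSK, had 10.4 CPM in Yap KO and 12.6 CPM in WT stimulated cells, against 79.9 CPM in Yap KO and 72.8 CPM in WT unstimulated cells, the lowest stimulated level of the 9. It fell by 2.73 ± 0.17 (adjusted p = 1.03e-06). Skap1, an adaptor to integrins, had 62.3 CPM in Yap KO and 81.9 CPM in WT stimulated cells, against 454 CPM in Yap KO and 443 CPM in WT unstimulated cells. It fell by 2.65 ± 0.15 (adjusted p = 5.64e-07). Plcg1, the phospholipase that makes the messengers of the branches, had 86.0 CPM in Yap KO and 100.3 CPM in WT stimulated cells, against 479 CPM in Yap KO and 482 CPM in WT unstimulated cells. Its stimulated levels lay far below the unstimulated ones, with a coefficient of -2.37 ± 0.13. Grap2, the adaptor GADS that joins SLP-76 to LAT, had 14.8 CPM in Yap KO and 17.8 CPM in WT stimulated cells, against 78.8 CPM in Yap KO and 77.5 CPM in WT unstimulated cells, with a coefficient of -2.26 ± 0.15. Lat itself had 161 CPM in Yap KO and 175 CPM in WT stimulated cells, against 415 CPM in Yap KO and 374 CPM in WT unstimulated cells, with a smaller coefficient of -1.23 ± 0.13. Vav1, an exchange factor for Rac, had 164 CPM in Yap KO and 175 CPM in WT stimulated cells, against 404 CPM in Yap KO and 374 CPM in WT unstimulated cells (-1.20 ± 0.12). Themis, a regulator of receptor signalling known from thymocyte selection, had 93.1 CPM in Yap KO and 106 CPM in WT stimulated cells, against 232 CPM in Yap KO and 278 CPM in WT unstimulated cells (-1.35 ± 0.12). These 3 thus fell by about the same amount. Lcp2, which codes for SLP-76, did not pass, with 306 CPM in Yap KO and 295 CPM in WT stimulated cells, against 289.7 CPM in Yap KO and 323 CPM in WT unstimulated cells and a coefficient of -0.03 ± 0.12 (adjusted p = 0.856). Sh2d1a, the adaptor SAP of the SLAM receptors, was the 1 that rose, with 115 CPM in Yap KO and 131 CPM in WT stimulated cells, against 41.3 CPM in Yap KO and 38.1 CPM in WT unstimulated cells. Both stimulated libraries lay above both unstimulated ones, and it rose by 1.63 ± 0.14 (adjusted p = 7.34e-06). Of its exon bases 26.6% lie opposite Tenm1, which had at most 7 reads in a library.

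In the Ras, MAP kinase and NF-kappaB branches, 4 of 8 genes fell, 2 rose and 2 did not pass. Called in either direction were 75.0% of these, beside 67.4% of all tested genes (34.1% lower and 33.3% higher). Rasgrp1, the Ras exchange factor that diacylglycerol recruits, had 63.7 CPM in Yap KO and 79.5 CPM in WT stimulated cells, against 407 CPM in Yap KO and 431 CPM in WT unstimulated cells. It fell by 2.56 ± 0.13 (adjusted p = 3.86e-07), the only 1 of the 8 past 2-fold. Smaller falls were those of Sos1 (-0.69 ± 0.15) and Grb2 (-0.68 ± 0.13), an exchange factor for Ras and its adaptor, and of Malt1 (-0.34 ± 0.13), the protease of the NF-kappaB branch. Nras (0.50 ± 0.12) and the MAP kinase kinase gene Map2k1 (0.78 ± 0.12) rose. Mapk3, the kinase ERK1, had 0.28 ± 0.17 (adjusted p = 0.18) and Bcl10, the partner of Malt1, -0.19 ± 0.13 (adjusted p = 0.236), and neither passed. Within this branch the fall was therefore largest at Rasgrp1.

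The 9 negative regulators were divided, with 6 lower and 3 higher in stimulated cells, beside 34.1% and 33.3% of all tested genes. Dgka, a kinase that consumes diacylglycerol, had 132 CPM in Yap KO and 174 CPM in WT stimulated cells, against 1418 CPM in Yap KO and 1814 CPM in WT unstimulated cells. It fell by 3.40 ± 0.14 (adjusted p = 1.21e-07), the furthest fall of the 52 genes. Dgkz, the related enzyme, had 138 CPM in Yap KO and 126 CPM in WT stimulated cells, against 394 CPM in Yap KO and 333 CPM in WT unstimulated cells, with a coefficient of -1.46 ± 0.12. Cblb, a ubiquitin ligase that restrains activation, moved the other way, with 277 CPM in Yap KO and 315 CPM in WT stimulated cells, against 133 CPM in Yap KO and 126 CPM in WT unstimulated cells. It rose by 1.19 ± 0.13 (adjusted p = 3.4e-05). Cbl, its relative, had 34.9 CPM in Yap KO and 39.7 CPM in WT stimulated cells, against 99.5 CPM in Yap KO and 110.5 CPM in WT unstimulated cells, and fell by 1.49 ± 0.13. Thus the 2 ligase genes went in opposite directions in both genotypes. The same held for the phosphatase-like pair Ubash3a and Ubash3b. Ubash3a had 86.5 CPM in Yap KO and 95.5 CPM in WT stimulated cells, against 194 CPM in Yap KO and 187 CPM in WT unstimulated cells, and fell by 1.07 ± 0.12, whereas Ubash3b had 63.4 CPM in Yap KO and 45.2 CPM in WT stimulated cells, against 42.5 CPM in Yap KO and 26.1 CPM in WT unstimulated cells, and rose by 0.68 ± 0.14 (adjusted p = 0.00226). Among protein phosphatases, Ptpn6 (-0.44 ± 0.14) and Ptpn22 (-0.66 ± 0.13) fell and Ptpn2 (0.59 ± 0.13) rose.

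The 5 tested MAP kinase phosphatase and Sprouty genes held the largest rises. Spry1, an inhibitor of the Ras pathway, had 1622 and 1892 reads in Yap KO and WT stimulated cells, against 19 and 97 reads in Yap KO and WT unstimulated cells. It rose by 5.32 ± 0.41 (SE, adjusted p = 4.12e-06), furthest of the 52, and 24.4% of its exon bases lie opposite Gm42922, which had 101, 102, 0 and 15 reads in the same order. Dusp4, a nuclear phosphatase of MAP kinases, had 764 and 730 reads in Yap KO and WT stimulated cells, against 47 and 37 reads in Yap KO and WT unstimulated cells. It rose by 4.45 ± 0.21 (adjusted p = 2.68e-07), with log2 ratios of 4.38 (4.03 to 4.91) in Yap KO and 4.39 (3.99 to 4.99) in WT cells, a difference of -0.01 (-0.64 to 0.63). Dusp5, a nuclear phosphatase of ERK, had 205 CPM in Yap KO and 183 CPM in WT stimulated cells, against 38.5 CPM in Yap KO and 39.7 CPM in WT unstimulated cells, and rose by 2.31 ± 0.13 (adjusted p = 6.67e-07). It shares 21.2% of its 31-base words with other genes, most often AC137853.2, so its level is uncertain. Dusp2 and Dusp6 went down. Dusp2, another nuclear phosphatase, had 160.0 CPM in Yap KO and 108 CPM in WT stimulated cells, against 347 CPM in Yap KO and 421 CPM in WT unstimulated cells, and fell by 1.53 ± 0.19 (adjusted p = 8.26e-05). Dusp6, which acts on ERK in the cytoplasm, had 36.2 CPM in Yap KO and 25.7 CPM in WT stimulated cells, against 82.8 CPM in Yap KO and 133 CPM in WT unstimulated cells, and fell by 1.78 ± 0.24 (adjusted p = 0.000162).

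The window before the RefSeq start of Dusp5 (chr19:53528895-53529144, GRCm38.p6, forward) is shown because it holds the CArG box, the element of serum response factor, at 2 adjoining places, in capitals. They span positions -82 to -73 and -72 to -63 from the start.
Dusp5: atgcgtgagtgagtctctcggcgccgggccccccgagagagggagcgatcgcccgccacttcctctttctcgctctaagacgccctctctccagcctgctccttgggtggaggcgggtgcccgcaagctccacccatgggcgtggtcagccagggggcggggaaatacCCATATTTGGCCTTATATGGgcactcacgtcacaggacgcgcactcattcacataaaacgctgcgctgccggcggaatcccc
Of 53 windows of listed genes this was the only 1 with a CArG box (1.89%), and 1.47% of all 32851 windows held one. A match describes the letters and not a bound site.

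**Figure D3:**
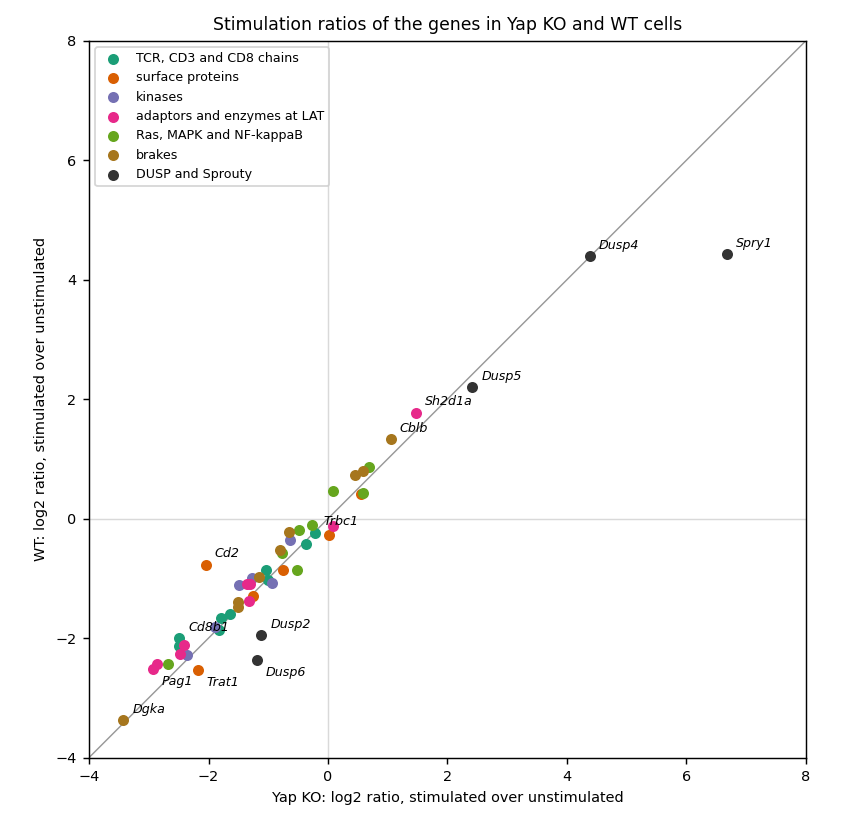
Log2 ratio of stimulated over unstimulated level for the 52 tested genes, with Yap KO on the horizontal and WT on the vertical axis, coloured by role, and a line where both are equal. Most points lie near the line and below 0 on both axes, while Spry1, Cd2, Dusp6 and Dusp2 stand away from it.

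Genes of the same pathway that are not on the list moved in both directions as well. They too were chosen with earlier results of these data known. Of 88 further components, 87 were tested, and 48 fell (55.2%) and 20 rose (23.0%), beside 34.1% and 33.3% of all tested genes. Called in either direction were 78.2% of the 87, beside 67.4% of all tested genes. By group this share ranged from 63.2% for Ras and MAP kinase genes to 87.5% for the other inhibitors. Of 20 adaptors and kinases 14 fell and 3 rose, with Lax1, an adaptor that restrains signalling, at 13.3 CPM in Yap KO and 12.0 CPM in WT stimulated cells, against 206 CPM in Yap KO and 154 CPM in WT unstimulated cells (-3.82 ± 0.15). Of 16 calcium and calcineurin genes 9 fell and 4 rose, with Orai2, a calcium channel subunit, at 15.7 CPM in Yap KO and 15.8 CPM in WT stimulated cells, against 284 CPM in Yap KO and 329 CPM in WT unstimulated cells (-4.27 ± 0.14). This was the furthest fall of the 87. Of 19 Ras and MAP kinase genes 9 fell and 3 rose, with Hras at 74.9 CPM in Yap KO and 64.2 CPM in WT stimulated cells, against 28.7 CPM in Yap KO and 25.6 CPM in WT unstimulated cells (1.36 ± 0.14). Of 16 genes of NF-kappaB adaptors and phosphoinositide kinases 8 fell and 4 rose. Of 16 other inhibitors 8 fell and 6 rose. Among these, Cish, an inhibitor that cytokines induce, had 209.7 CPM in Yap KO and 262 CPM in WT stimulated cells, against 17.9 CPM in Yap KO and 11.6 CPM in WT unstimulated cells (4.01 ± 0.22), and Dusp1, a further MAP kinase phosphatase, had 21.1 CPM in Yap KO and 21.1 CPM in WT stimulated cells, against 259.7 CPM in Yap KO and 445 CPM in WT unstimulated cells (-4.01 ± 0.20). Both have exons opposite another gene, and they mark opposite ends of that group. Vav2, a relative of Vav1, was also among the 3 largest rises, at 1.53 ± 0.21.

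The second comparison set Yap KO against WT cells in each state. Levels of most receptor signalling genes were close in the 2 genotypes, and Trat1 was the exception in both states, lower in Yap KO. In the stimulated libraries 50 of 52 genes were less than 1.5-fold apart (96.2%), and in the unstimulated ones 48 (92.3%), beside 78.9% and 81.6% of all tested genes. These shares were not matched for read number, and ratios of genes with fewer reads vary more by counting error. The median log2 ratio was -0.11 stimulated and 0.04 unstimulated. By the additive edgeR quasi-likelihood test, 1 of 52 was lower in Yap KO and none higher, beside 0.559% and 0.838% of all tested genes (1.4% together). DESeq2 gave the same counts for the 52 genes. Over all tested genes it gave 88 lower and 93 higher, against 86 and 129 in the edgeR fit. Unadjusted p-values were under 0.05 for 6 of 52, beside 11.6% of all tested genes. At 2-fold or more the counts were the same, 1 lower and none higher, beside 0.487% and 0.721%. Because no replicate animals are labelled, these p-values would be too small as a test between animals. With no replicate, a gene that did not pass is not shown to be alike in the 2 genotypes.

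Trat1 was read 31 times in Yap KO and 101 times in WT stimulated cells, and 198 times in Yap KO and 665 times in WT unstimulated cells. The log2 ratio of Yap KO over WT was -1.57 (-2.25 to -1.03) stimulated and -1.92 (-2.17 to -1.70) unstimulated, with exact 95% intervals that cover counting error only. Its genotype coefficient was -1.83 ± 0.24 (edgeR quasi-likelihood adjusted p = 0.00782). The call was lost with no filter on low counts (adjusted p = 0.0806) and with no term for state (adjusted p = 1.0), at coefficients of -1.81 and -1.88, and was kept in the other fits at 0.000647 to 0.0177. It was also the only listed gene that differed 1.5-fold or more, and the same way, in each state with both intervals excluding no difference, a rule met by 1.79% of all tested genes in that direction and 1.81% in the other. Trat1 lies on chromosome 16 from 48730774 to 48772021 on the reverse strand (GRCm38). The 250 bases before its RefSeq start (chr16:48772063-48772312, GRCm38.p6, reverse) are shown because it was the 1 gene called between genotypes, with the RUNX motif TGTGGT, found on the opposite strand, in capitals. Of all windows 14.05% held that motif, and 6 of 53 windows of listed genes did (11.3%).
Trat1: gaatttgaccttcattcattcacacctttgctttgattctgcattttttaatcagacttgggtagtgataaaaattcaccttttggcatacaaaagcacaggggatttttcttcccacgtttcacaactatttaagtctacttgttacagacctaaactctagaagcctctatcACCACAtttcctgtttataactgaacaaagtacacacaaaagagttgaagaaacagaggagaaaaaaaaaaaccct

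Beside Trat1, the smallest adjusted p was that of Ubash3b, a negative regulator of ZAP-70, with log2 ratios of 0.49 (0.37 to 0.61) stimulated and 0.70 (0.56 to 0.85) unstimulated (adjusted p = 0.0976). Thy1 stood at 0.42 (0.31 to 0.54) and 0.31 (0.23 to 0.39) in the same order, and Dgka at -0.40 (-0.48 to -0.33) and -0.36 (-0.38 to -0.33). Neither passed (adjusted p = 0.274 and 0.272). For Trbc1 the values were -0.31 (-0.35 to -0.26) and -0.32 (-0.35 to -0.28), again without passing (adjusted p = 0.35). The ratios of Lck, Fyn, Zap70, Txk, Csk and Prkcq were above 0 in unstimulated cells, from 0.14 for Csk to 0.36 for Zap70, and in stimulated cells Lck and Fyn were below 0. Of the 9 LAT adaptors and enzymes, 8 were below 0 in stimulated cells and 3 in unstimulated cells. Over all tested genes 50.1% were below 0 in stimulated and 44.9% in unstimulated cells. Markers of gamma-delta T cells, which carry another receptor with the same CD3 chains, were higher in Yap KO in both states for 6 of 6 genes. They summed to 43.7 and 24.6 CPM in Yap KO and WT stimulated cells, against 431 and 265 CPM in Yap KO and WT unstimulated cells. One of them, Trgc1, had only 1 read in Yap KO and 0 in WT stimulated cells. Trdc, the delta constant region, made up 33.5 and 22.6 CPM of the stimulated sums and 351 and 232 CPM of the unstimulated ones in Yap KO and WT cells. The part of these cells in the genotype differences was not tested.

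**Figure D4:**
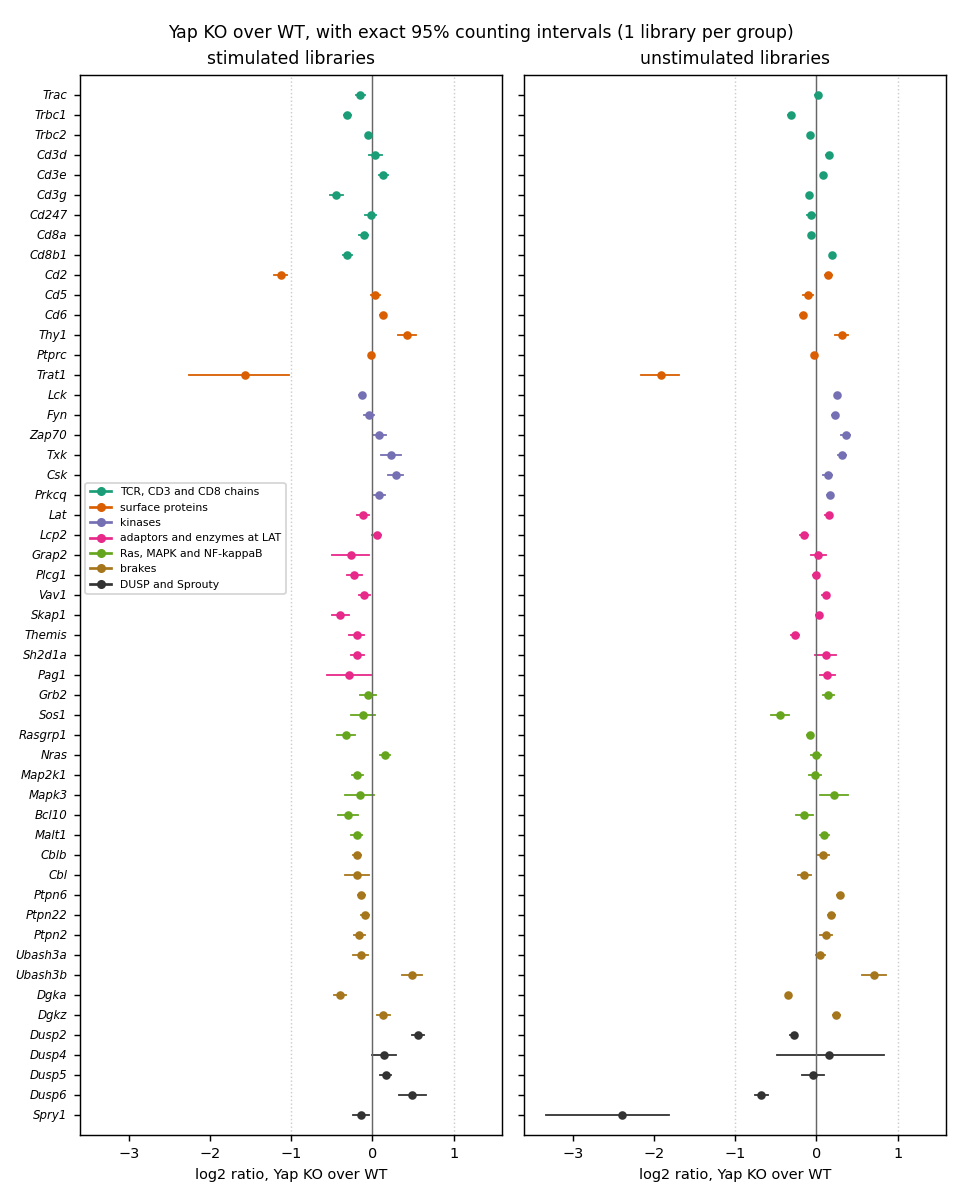
Log2 ratio of Yap KO over WT for the 52 tested genes in stimulated (left) and unstimulated (right) libraries, with exact 95% counting intervals as lines and dotted lines at 2-fold. Trat1 lies beyond 2-fold below 0 in both panels, Cd2 only in the stimulated and Spry1 only in the unstimulated panel.

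The response to stimulation was compared between genotypes by size, since 1 library per group leaves no test of that difference. It was at least 2-fold apart, with a 95% counting interval that excluded no difference, for Spry1, Dusp6 and Cd2, 3 of 52 genes, beside 6.44% of all tested genes (2.51% more positive and 3.92% more negative in Yap KO). The Spry1 ratio was larger in Yap KO cells, with log2 values of 6.68 (6.20 to 7.58) in Yap KO and 4.42 (4.16 to 4.76) in WT cells, a difference of 2.25 (1.55 to 2.96). Its stimulated levels were 84.0 CPM in Yap KO and 92.6 CPM in WT cells, so the gap lay in the unstimulated libraries, with 19 reads in Yap KO and 97 in WT. The Dusp6 ratio was less negative in Yap KO cells, with -1.19 (-1.32 to -1.07) in Yap KO and -2.36 (-2.50 to -2.23) in WT cells, a difference of 1.17 (0.99 to 1.35). It was higher in Yap KO than in WT cells when stimulated, at 0.49 (0.33 to 0.66), and lower when unstimulated, at -0.68 (-0.76 to -0.60). Dusp2 showed the same order, with 0.56 (0.48 to 0.64) stimulated and -0.28 (-0.32 to -0.24) unstimulated, and its responses were 0.84 apart. The Cd2 ratio was more negative in Yap KO cells, with -2.04 (-2.12 to -1.97) in Yap KO and -0.77 (-0.82 to -0.72) in WT cells, a difference of -1.28 (-1.36 to -1.19). Stimulated Yap KO cells held 95.5 CPM of Cd2, against 209 CPM in stimulated WT cells, and both unstimulated libraries were near each other. The ratio of Yap KO over WT was below 0 in both states for 16 of 52 genes and above 0 in both for 10, beside 4007 and 4670 of all 15394 tested genes. It had opposite signs with both intervals excluding 0 for 15 of 52 (28.8%), beside 8.88% of all tested genes, and these intervals are narrower for genes with more reads. By the same rule the stimulation ratio had opposite signs in the genotypes for 1 gene, Lcp2 (1.92%), beside 1.87%.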

How the data were processed

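The data are bulk RNA-seq of 4 mouse libraries, 1 per genotype and state. The authors deposited raw read counts per Ensembl gene, whole numbers with no normalization. Per the submitters' processing notes the genome build was mm9. Not given in the sources used here were the aligner, the annotation release and whether counting used strand, so genes on opposite strands cannot be told apart. Coordinates and exon lengths come from GENCODE M21 on GRCm38, and sequences from the RefSeq tables (GRCm38.p6). These builds differ from that of the alignment, and nothing was converted, so exon lengths and overlaps may differ from those the authors counted over. The 5 summary entries (unassigned reads) were left out, and 35.6 to 39.7% of all entries were in genes.

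Genes were kept with filterByExpr by state (minimum count 10). Libraries were scaled with TMM and tested with edgeR 4.0.16 (R 4.3.3, quasi-likelihood F test, genotype and state additive, 1 residual degree of freedom, Benjamini-Hochberg over 15394 genes), and with DESeq2 1.42.0 as an alternative. The SE is the coefficient over the square root of F. Log2 ratios of single libraries used a prior count of 2. Their intervals are exact conditional binomial (Clopper-Pearson) ones, and those of response differences are normal on the log scale. Intervals cover counting error only. Shared sequence was the share of 31-base words of GENCODE M21 transcripts also found elsewhere.

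The genes and lists were chosen with earlier results of these data known. Values per library were given for all receptor chains, for genes called with a coefficient of at least 1 for state, for genes called for genotype, for genes 1.5-fold apart between genotypes in both states, and for genes whose responses were 2-fold apart. Of the 88 further components, the 3 largest calls in each direction were named.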

Additional observations from a re-analysis of the deposited data

Results flagged for a closer look

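For 15 genes the log2 ratio of Yap KO over WT had opposite signs in the 2 states, with both exact 95% counting intervals excluding 0, or 28.8% of 52, beside 8.88% of all tested genes. The difference between states was not tested, since each group is 1 library, and intervals cover counting error only. These intervals are narrower for genes with more reads, so small ratios of well-read genes can exclude 0. Of these genes 11 were lower in Yap KO when stimulated and higher when unstimulated. The stimulated and unstimulated log2 ratios are given in that order for each gene, Cd8b1 -0.309 and 0.186, Cd2 -1.130 and 0.145, Lck -0.124 and 0.250 and Lat -0.117 and 0.151. Next came Vav1 -0.099 and 0.111, Pag1 -0.284 and 0.134, Malt1 -0.190 and 0.098 and Cblb -0.187 and 0.086, then Ptpn6 -0.136 and 0.285, Ptpn22 -0.092 and 0.185 and Ptpn2 -0.163 and 0.120. The other 4 were higher in Yap KO when stimulated and lower when unstimulated, at Cd6 0.133 and -0.170, Lcp2 0.053 and -0.155, Dusp2 0.561 and -0.280 and Dusp6 0.491 and -0.679 in the same order. Lcp2, which codes for the adaptor SLP-76, also had stimulation ratios of opposite sign, 0.077 in Yap KO and -0.13 in WT cells, a pattern of 1.87% of all tested genes. Only Cd2 was beyond 2-fold in either state, and Dusp6 was beyond 1.5-fold in the unstimulated one.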

How the results depend on the processing

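The 37 falls and 10 rises with stimulation became 35 to 38 and 9 to 10 under the other scalings, without the filter, with DESeq2 or without a genotype term, and 29 and 8 when genes with exons opposite another gene were left out, which left 41 listed genes. The call of Trat1 between genotypes was kept under both other scalings and DESeq2, and its count of 1 became 0 with no filter and 0 with no term for state. Over all tested genes, leaving out those opposite another gene gave 3301 rises and 3382 falls with stimulation, and 56 genes higher and 40 lower in Yap KO, with 10183 genes tested. Main counts of 129 higher and 86 lower in Yap KO became 23 and 18 with no filter and 0 and 0 with no term for state, and 56 were lower with total counts only. For these the cause was not tested. The 3 genes with responses 2-fold apart stayed 3 with total counts or a prior count of 0.5, and a 1.5-fold rule gave 4. No single library could be left out, since groups hold 1 library each and no degree of freedom would remain. No paired analysis was possible because the groups share only the replicate number 1, beyond the genotype term of the additive fit, which already compares the states within each genotype with 1 residual degree of freedom.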

Other observations

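Relative levels of 8 gene pairs were set side by side per exon length. Cd3d over Cd3e was 1.13 and 1.20 in Yap KO and WT stimulated cells, against 1.10 and 1.04 in Yap KO and WT unstimulated cells, and so was close in all 4 libraries. Cd3g over Cd3e was 0.484 and 0.721 in Yap KO and WT stimulated cells, against 0.771 and 0.868 in Yap KO and WT unstimulated cells, lowest in Yap KO stimulated cells. Trac over Cd3e was 4.13 and 5.02 in Yap KO and WT stimulated cells, against 2.39 and 2.50 in Yap KO and WT unstimulated cells. The ratio of Trbc1 to Trbc2 was 0.518 and 0.619 in Yap KO and WT stimulated cells, against 0.301 and 0.356 in Yap KO and WT unstimulated cells, with the shared sequence of these genes as a limit. Cd247 over Cd3e was 0.551 and 0.614 in Yap KO and WT stimulated cells, against 0.202 and 0.224 in Yap KO and WT unstimulated cells. The coreceptor ratio of Cd8b1 to Cd8a was 2.62 and 3.02 in Yap KO and WT stimulated cells, against 4.74 and 3.97 in Yap KO and WT unstimulated cells. Among enzymes that consume diacylglycerol, Dgkz over Dgka was 0.796 and 0.549 in Yap KO and WT stimulated cells, against 0.211 and 0.139 in Yap KO and WT unstimulated cells. Ubash3b over Ubash3a was 1.13 and 0.726 in Yap KO and WT stimulated cells, against 0.337 and 0.213 in Yap KO and WT unstimulated cells. Each of these is a value from 1 library and was not tested.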
